A study of Homo sapiens with 8 samples.

Results

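The NSun6 libraries gave 1794 high-confidence nuclear cytosines, and 555 of them lay outside the exons of protein-coding genes and outside the vault RNA genes. Of these 555 sites, 70 were in exons of noncoding genes, 198 in introns and 287 in no annotated gene on their strand. The other nuclear sites were 1209 in protein-coding exons and 30 in vault RNA genes. A site is a cytosine with over 50 RPM (truncation reads, scaled so that libraries of unequal size compare) in at least 2 of the 3 NSun6 libraries. Over 50 RPM was reached in all 3 libraries by 406 sites and in 2 libraries by 149. The sites were thus chosen by their measured NSun6 values, so these levels, and every comparison at the sites that uses them, are given as a description.

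The libraries are miCLIP (methylation individual-nucleotide resolution crosslinking immunoprecipitation) of HEK293 cells, an established human embryonic kidney line, taken 24 h after transfection with myc-tagged NSun3 or NSun6, with 3 replicates per enzyme. Both miCLIP groups are the same cell line carrying an overexpressed tagged protein, immunoprecipitated with an antibody against c-myc, and NSun6 served as the comparator for NSun3. No library from untransfected cells was analysed here. A further pair of samples is bisulfite sequencing of poly(A) RNA from HEK293 cells, deposited as 1 table. The NSun3 libraries held 47352 to 138921 reads and the NSun6 libraries 305392 to 467586, so 1 read was worth 7.20 to 21.1 RPM in NSun3 and 2.14 to 3.27 RPM in NSun6. A count of 0 allowed up to 21.6 to 63.4 RPM in NSun3. Exons of the NSUN6 gene held 268, 336 and 227 reads in NSun6 libraries 1, 2 and 3 and none in any NSun3 library. Exons of NSUN3 held 27, 0 and 0 reads in the NSun3 libraries and 0, 0 and 8 in the NSun6 libraries, so they did not separate the labels.

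NSun6 is an RNA cytosine methyltransferase that modifies the last base of the acceptor stem in tRNA-Cys and tRNA-Thr. In mRNA it is known for cytosines that begin the sequence CTCCA in the loop of a hairpin. In miCLIP a mutated enzyme cannot release the cytosine it attacks, and reverse transcription stops next to the bound base. For NSun3 miCLIP the study transfected a catalytic mutant of NSun3. The labels do not say whether the NSun6 construct was the mutated form, so the enzymes may have been compared in unlike forms. A truncation here thus marks where reverse transcription stopped on RNA pulled down with NSun6. Whether NSun6 was crosslinked at that base was not tested. NSun3 works on mitochondrial tRNA-Met.

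The sequence around the sites fell into a few kinds, which were set after the values were seen. A tRNA-like fold held 92 sites, 84 by the fixed rule for stems and loops and 8 by a wider form of it. The window of 50 nt on each side of 269 sites resembled the ribosomal DNA (rDNA) repeat, with at least 80% identity over at least 50 nt. Another 49 resembled or flanked a small noncoding RNA, and 32 had no such likeness but matched rDNA, a tRNA-like locus or mitochondrial DNA over 18 nt at the site with at most 2 mismatches. The remaining 113 had none of these likenesses. In protein-coding exons 7 of 1209 sites fell in one of the likeness classes, and 1202 did not. Reads were kept by the study only where they had a single best place in the genome. Whether reads at a resembling locus came from that locus or from the RNA it resembles was not tested.

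The sequences of 3 of these kinds are set side by side because the bases at the site cytosine differ between them. Each is 30 bases of the GRCh37 (hg19) reference on the strand of the site, 5′ to 3′. The site cytosine and the 4 bases after it are in capitals. It is the cytosine nearest to the truncations, which can lie up to 2 nt away. Of the NSun6 reads within 2 nt, 33.0% fell on the cytosine itself over all 555 sites. The share was 43.8% at sites with no likeness, 39.6% at rDNA-like, 26.1% at tRNA-like and 10.4% at small RNA sites. The first set holds sites with no likeness that begin the motif CTCCA, 4 of the stronger ones and the sites in the long noncoding RNAs MALAT1 and NEAT1, whose levels were lower.

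No gene, chr14:89445529-89445558 (+): aatcttgggtCTCCAaacaagatcacagac
JARID2 intron, chr6:15310929-15310958 (+): ggatttcaatCTCCAgaattcccatccccg
FGFRL1 intron, chr4:1018594-1018623 (+): ggggcaccgtCTCCAcagcccctgggatgg
EPB41L4A-AS1 exon, chr5:111496822-111496851 (+): ccagggagttCTCCAgataagcctggtttt
MALAT1 exon, chr11:65273460-65273489 (+): ggaagctgatCTCCAatgctcttcagtagg
NEAT1 exon, chr11:65201773-65201802 (+): atcccccaccCTCCAgaggggtaaccagtg

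The second set shows strong tRNA-like sites in the arm that carries the anticodon and the 2 sites at the last base of the acceptor stem.

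POLG-DT exon, Arg, chr15:89878321-89878350 (+): gataaggcgtCTGACttcggatcagaagat
POLG-DT exon, Arg, chr15:89878328-89878357 (+): cgtctgacttCGGATcagaagattgcaggt
POLG-DT exon, Arg, chr15:89878333-89878362 (+): gacttcggatCAGAAgattgcaggttcgag
KCTD2 intron, Arg, chr17:73031232-73031261 (+): cgtctgacttCGGATcagaagattgagggt
No gene, Cys, chr17:37025559-37025588 (-): gactgcagatCAAGAggtccctggttcaaa
No gene, Thr, chr14:21081971-21082000 (-): gagcgctggtCTTGTaaaccaggggtcgcg
ENSG00000287804 intron, Thr, chr6:28456790-28456819 (-): gcgcctgtctCGTAAacaggagatcctggg
AL121932.1 exon, Thr, chr6:28616004-28616033 (-): gcgcctgtctCGTAAacaggagatcctggg
MIR3676 exon, Thr, last acceptor base, chr17:8090540-8090569 (+): ccagcggtgcCTCCGtgtttcccccacgct
AC008738.2 exon, Thr, last acceptor base, chr19:33668025-33668054 (+): ccagcggtgcCTCAAccgagcgtccaagct

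The third set holds the strongest rDNA-like site and 3 sites elsewhere in the genome whose bases match the last 18 nt of 18S rRNA with 2 mismatches each.

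18S end in an rDNA repeat, GL000220.1:110929-110946: CCTGCGGAAGGATCATTA
ANKRD30BL intron, chr2:133011918-133011947 (-): ggtaggtgaaCCTGCggagggatcattaac
ENSG00000258053 intron, chr12:71507540-71507569 (-): cccaatccatCCTGAggaaggatcattgca
No gene, chr11:132342305-132342334 (+): cctgtaaaagCCTACggaaggctcattatg
No gene, chr5:150284620-150284649 (+): ggaaaggaggCCTGCgaaaggagcattaag

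Within the 555 sites, most of the summed NSun6 level lay at loci that resemble tRNA or rRNA. The 30 sites in vault RNA genes, which are not among them, summed to 98678 ± 17083 RPM. The 555 sites together took 17.02%, 19.9% and 17.8% of all reads in NSun6 libraries 1, 2 and 3. The tRNA-like sites summed to 67178 ± 5829 RPM and the rDNA-like sites to 69828 ± 19271 RPM (SD, n = 3 libraries). The small RNA sites summed to 21718 ± 1315 RPM, or 7337 ± 913 RPM without 3 sites at the flanks of vault RNA genes. The 18-nt matches to 10516 ± 3391 RPM and the sites with no likeness to 13307 ± 629 RPM. Among the 50 sites with the highest mean level, 21 were tRNA-like, 19 rDNA-like, 5 small RNA-like and 3 18-nt matches, and 2 had no likeness. The rDNA-like sum was highest in NSun6 library 2 at 92034 RPM, against 57499 and 59949 RPM in libraries 1 and 3, while the sum of the sites with no likeness stayed between 12598 and 13796 RPM.

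**Figure D1:**
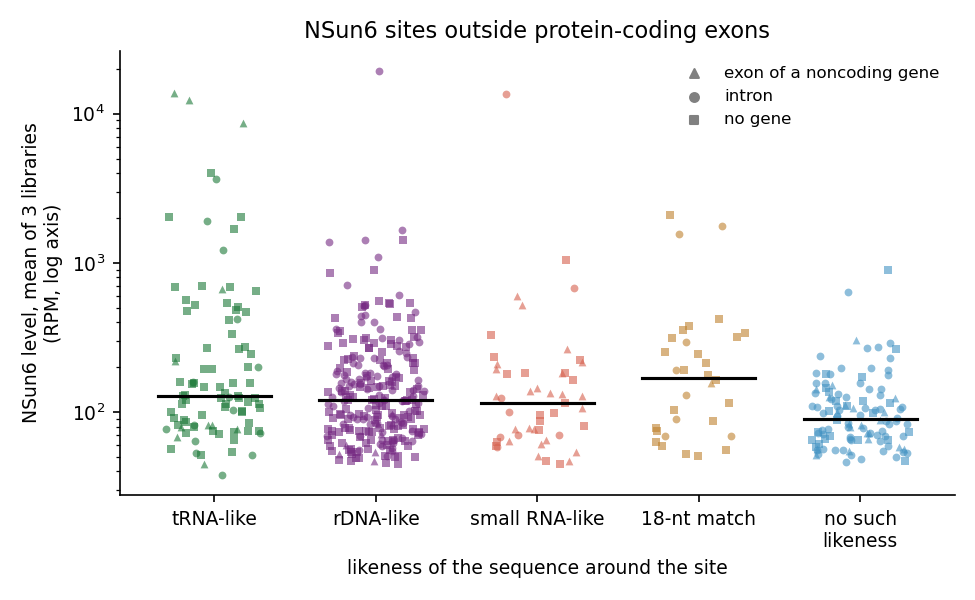
NSun6 level of each site (mean RPM of 3 libraries, log axis) by the likeness of the sequence around it, with triangles for exons of noncoding genes, circles for introns, squares for no gene and a black line at the median of the points. The sites with no likeness reach 892 RPM, while single tRNA-like and rDNA-like sites reach 13686 and 19317 RPM; 541 of 555 sites are drawn, since 14 at sex-linked loci are not listed singly.

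The sites at the motif CTCCA were mostly those with no likeness, 88 of 110. It was read on the strand of the site only, with the site cytosine as its first base, so that it overlaps no other motif counted here. Of all 555 sites 19.8% began CTCCA (exact 95% binomial interval 16.6% to 23.4%), against 88.3% of the sites in protein-coding exons (86.3% to 90.02%). By position the share was 35.7% in exons of noncoding genes, 30.8% in introns and 8.36% in no gene. By likeness it was 77.9% of the 113 sites with none (69.1% to 85.1%), 36.7% of the small RNA sites, 3.26% of the tRNA-like sites and 3.12% of the 18-nt matches. None of the 269 rDNA-like sites began CTCCA, which allows a share of up to 1.36%. Within introns, the 68 sites with no likeness held the motif at 59, or 86.8% (76.4% to 93.8%). As a background, 0.649% of the other cytosines within 50 nt of the sites began CTCCA, 0.685% around the sites with no likeness and 0.852% around the sites in protein-coding exons. It was 0.296% around the rDNA-like sites, so that 0 of 269 lies near this background, and 1.18% and 1.39% around the tRNA-like and small RNA sites. Windows of this length with a CTCCA elsewhere than at the site made up 15.7% of all 555, 18.6% of the 113 and 21.8% of those in protein-coding exons.

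**Figure D2:**
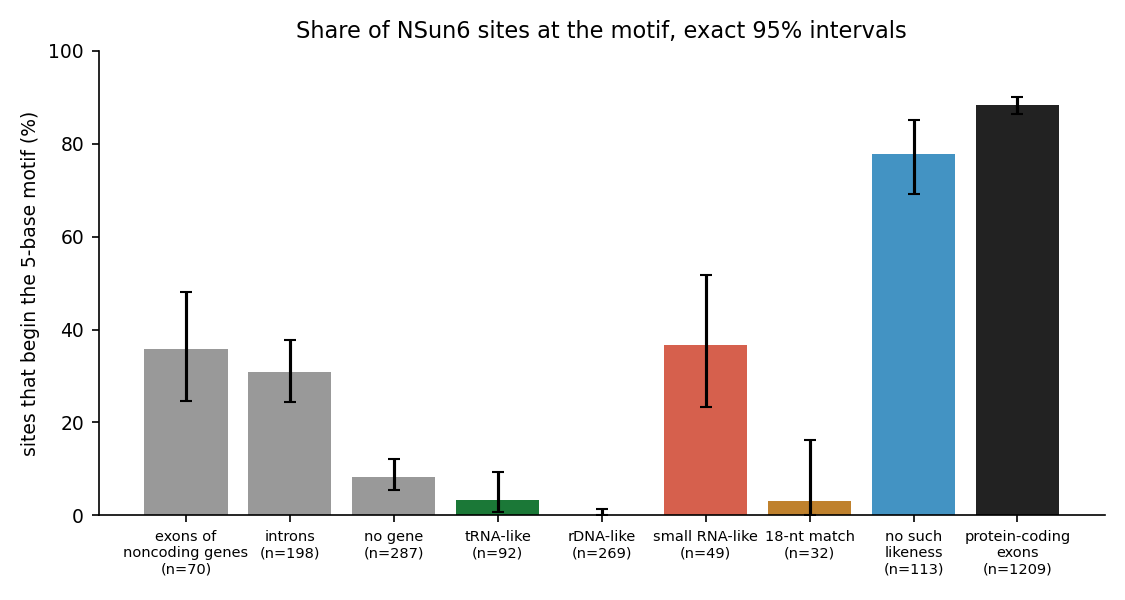
Share of sites that begin the 5-base motif (percent, bars from 0, error bars exact 95% binomial intervals) by position, by likeness, and in protein-coding exons, with the number of sites under each bar. The share is 77.9% where the sequence has no likeness and 88.3% in protein-coding exons, and at most 36.7% in every likeness class.

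Neighbouring sites share sequence and reads, so they are not independent. Joined within 100 nt of each other, the 555 sites formed 281 clusters, of which 39.1% held a CTCCA site. The 269 rDNA-like sites formed 40 clusters, the largest of 72 sites, while the 113 sites with no likeness formed 109. Counting error is all that the intervals cover.

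Predicted pairing was read at every site. Unpaired here means an unpaired probability over 0.5 for the cytosine in a partition function over 25 nt on each side. The cytosine was unpaired at 54.6% of all 555 sites. It was unpaired at 83.2% of the sites with no likeness (75.0% to 89.6%) and 78.3% of the sites in protein-coding exons (75.9% to 80.6%), where the mean over the other cytosines of the same windows was 49.1% and 51.5%. At the 88 sites with no likeness that began CTCCA the share was 87.5%, and at the 25 that did not it was 68.0%. It was 75.5% of the small RNA sites, 46.8% of the rDNA-like sites and 30.4% of the tRNA-like sites, where the mean over the other cytosines was 69.1%, 41.4% and 34.9%, near the shares themselves. A window of genomic letters does not hold the fold of a whole RNA, so these shares describe the local sequence only.

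Among the sites with no likeness, the strongest lay in no gene and in introns of protein-coding genes. The site at chr14:89445539 in no gene stood at 1062, 763 and 851 RPM in NSun6 libraries 1, 2 and 3. The intron site of JARID2, a gene for a subunit of the Polycomb repressive complex PRC2, stood at 512, 639 and 770 RPM. In the noncoding transcript EPB41L4A-AS1 the exon site stood at 377, 254 and 285 RPM. All 3 sites had no read in any NSun3 library, where a count of 0 allows up to 63.4 RPM in the shallowest. They were named for their high NSun6 values. The site in NEAT1, a nuclear RNA that builds paraspeckles, was lower and reached 18.5, 83.4 and 94.96 RPM. MALAT1, an abundant RNA of nuclear speckles, reached 83.4, 57.7 and 75.3 RPM. The NEAT1 values were thus under the limit of 50 RPM in library 1, while MALAT1 was over it in all 3.

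The 59 intronic CTCCA sites with no likeness lay in 59 genes, 58 of them protein-coding, and none of the 68 intronic sites of this kind had an NSun3 read. FGFRL1, a fibroblast growth factor receptor without a kinase domain, had a site at 291 ± 81.5 RPM (mean ± SD, n = 3). ZDHHC21, a palmitoyltransferase, had one at 268 ± 49.8 RPM, and CDYL, a chromodomain protein, one at 238 ± 30.8 RPM. Further sites lay in RRM2, the small subunit of ribonucleotide reductase (199 ± 32.9 RPM), in TRRAP, a scaffold of histone acetyltransferase complexes (197 ± 22.1 RPM), and in HK1, a hexokinase (156 ± 27.4 RPM). Each of the 59 genes holds 1 such site. A protein-coding exon on the same strand was found within 5000 nt of 39 of the 59 sites, at a median of 434 nt. It was within 100 nt of 9 of them and within 10 nt of none.

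A few sites without CTCCA lay at the edge of an exon instead. Of the sites with no likeness, 5 were 1 to 5 nt from a protein-coding exon, the exon was downstream of all 5, and none began CTCCA. They were next to exons of SPINDOC, SCRIB, CLTC, EXO1 and IFFO2. The SPINDOC site, the strongest, stood at 104.96, 178 and 147 RPM and the EXO1 site at a mean of 65.9 RPM. The intronic CTCCA sites named before were among the stronger of their kind and do not serve as a comparison. Over all 68 intronic sites with no likeness the median was 92.8 RPM.

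The tRNA-like sites by the fixed rule lay at 55 loci with 26 anticodons, and 3 loci with the arginine anticodon TCG held 40541 of their 60182 RPM. POLG-DT, a noncoding transcript that starts beside the mitochondrial DNA polymerase gene POLG, has an exon over one of these loci. Its cytosine chr15:89878343 stood at 14895, 11418 and 14745 RPM, chr15:89878338 at 11123, 11837 and 14100 RPM, and chr15:89878331 at 8894, 7620 and 9401 RPM. They are bases 40, 35 and 28 of the tRNA-like span of 72 nt, counted from its 5′ end, and thus sit in and around the anticodon loop. The 9 sites of the 3 loci summed to 40541 ± 4229 RPM in NSun6 (SD, n = 3 libraries) and to 8782, 2150 and 3485 RPM in NSun3. The KCTD2 intron locus held 3653 ± 365 RPM at chr17:73031242 and the chromosome 6 locus 1910 ± 490 RPM at chr6:26323085.

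Loci with a cysteine or threonine anticodon, those of the tRNAs that NSun6 is known to methylate, held 34 sites at 19 loci. Of these, 28 lay in no gene, 3 in introns and 3 in exons of noncoding genes. The Cys site chr17:37025578 stood at 2315, 1865 and 1899 RPM and the Thr site chr14:21081990 at 2183, 1839 and 2053 RPM. Both are in the anticodon arm, at bases 39 and 32, as the printed sequences show. Bases 27 to 41 held 21 of the 34 sites and 11529 ± 1533 of their 13946 ± 1036 RPM. This was not particular to Cys and Thr. Of the 50 tRNA-like sites with other anticodons, the same bases held 8 at the TCG loci and 22 at the rest. The last 10 bases of the span held 3 of all 84 sites. Reads under 18 nt were dropped by the study, and a read runs from its truncation toward the 3′ end. A truncation in these bases, the last acceptor base among them, was kept only where the RNA ran on well past the span. The low count there thus cannot tell whether NSun6 was held at these bases. The last base of the acceptor stem, where the known methylation lies, was a site at 2 loci, in MIR3676 with 24.7, 62.02 and 118 RPM and in AC008738.2 with 30.9, 92.0 and 124 RPM. Both are below 50 RPM in library 1. The named genes here are annotated as miRNA genes over the tRNA-like span.

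At a pair of Thr loci on chromosome 6 the 30 printed bases are the same, and the levels did not overlap. The site in the ENSG00000287804 intron stood at 1392, 1016 and 1271 RPM and the site in AL121932.1 at 886, 565 and 544 RPM. Of the 34 Cys and Thr sites, 28 had no NSun3 read, and in the summed reads the NSun3 libraries held 86.4, 0 and 0 RPM. CTCCA began at 1 of them, chr1:222638349, base 3 of a Thr locus, which stood at 407, 584 and 452 RPM.

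**Figure D3:**
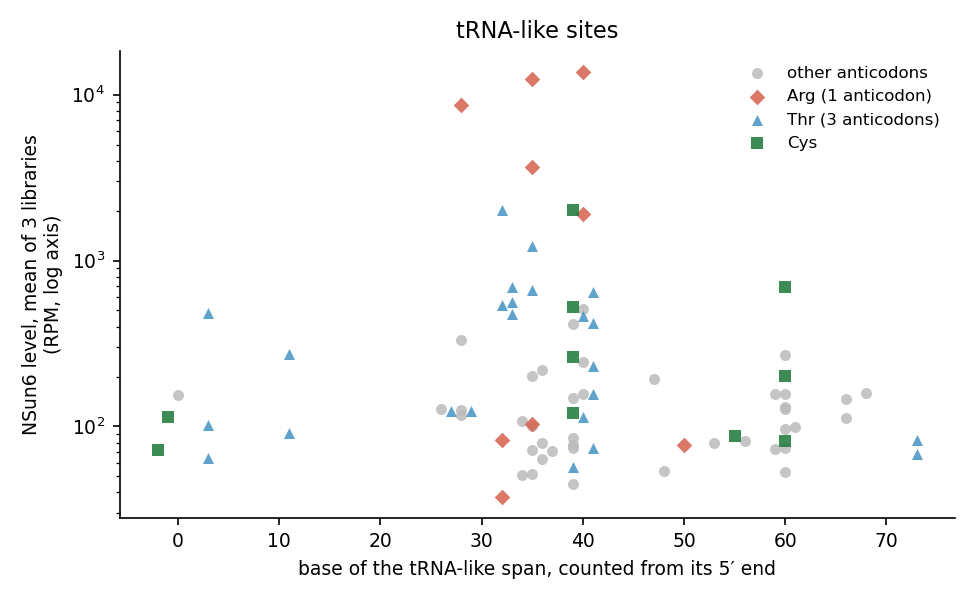
NSun6 level (mean RPM of 3 libraries, log axis) of the 84 sites in a tRNA-like fold by base of the span from its 5′ end. Diamonds are sites with the arginine anticodon TCG, triangles threonine and squares cysteine. Circles are all other anticodons, among them CCG, CCT and TCT, which are arginine anticodons as well. Bases 27 to 41 hold 21 of the 34 cysteine and threonine sites, 8 TCG sites and 22 of the circles. The highest points, up to 13686 RPM, are TCG sites.

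The rDNA-like sites lay at 24 places in the genome, and no position of the repeat was held by more than 1 site. Reads were kept only where they had a single best place, which favours 1 copy per position, so this count also reflects the mapping. Ribosomal DNA encodes 18S, 5.8S and 28S rRNA in that order with spacers between. Placed on 1 repeat, 154 sites fell upstream of 5.8S, 5 in it and 110 downstream, and the 269 sites took 269 different positions. The identity to the repeat was 82.5% to 100%, with a median of 98.4%. The largest block, 72 sites at chr21:9827004-9827536 in no gene, summed to 13650 ± 3311 RPM in NSun6 and to 13418 ± 4825 RPM in NSun3, so these sums overlapped. The 35 sites in an HFM1 intron summed to 6812 ± 2478 RPM in NSun6 and 2455 ± 1376 RPM in NSun3, and the 17 in a PDE3A intron to 4039 ± 733 and 2688 ± 1201 RPM. HFM1 is a meiotic helicase and PDE3A a phosphodiesterase.

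An intron of ANKRD30BL held the strongest of all 555 sites, chr2:133011937, at 11045, 26254 and 20652 RPM in NSun6 and 367, 1810 and 0 RPM in NSun3. It lies 1096 nt upstream of the start of 5.8S on the repeat, at the 3′ end of 18S. With 24 other sites in this intron the sum was 26078 ± 9379 RPM. The spread between libraries at this site was wide, with library 1 lowest and library 2 highest. Bases like the end of 18S recurred elsewhere. The 18-nt matches included 14 to rDNA, and 12 of these, on 11 chromosomes, matched the same last bases of 18S, as printed for 3 of them. Their levels ranged from 59.2 to 1569 RPM with a median of 304 RPM. In 12 of 12 the level was lowest in NSun6 library 1 and highest in library 2, the order seen at the ANKRD30BL site. The sum of all 555 sites and the sum of the rDNA-like sites had the same order, so it was not particular to the end of 18S. How many of the other single sites had it was not counted. Their summed levels were 2136, 5943 and 4224 RPM. Only 1 of the 1209 sites in protein-coding exons matched rDNA over 18 nt.

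**Figure D4:**
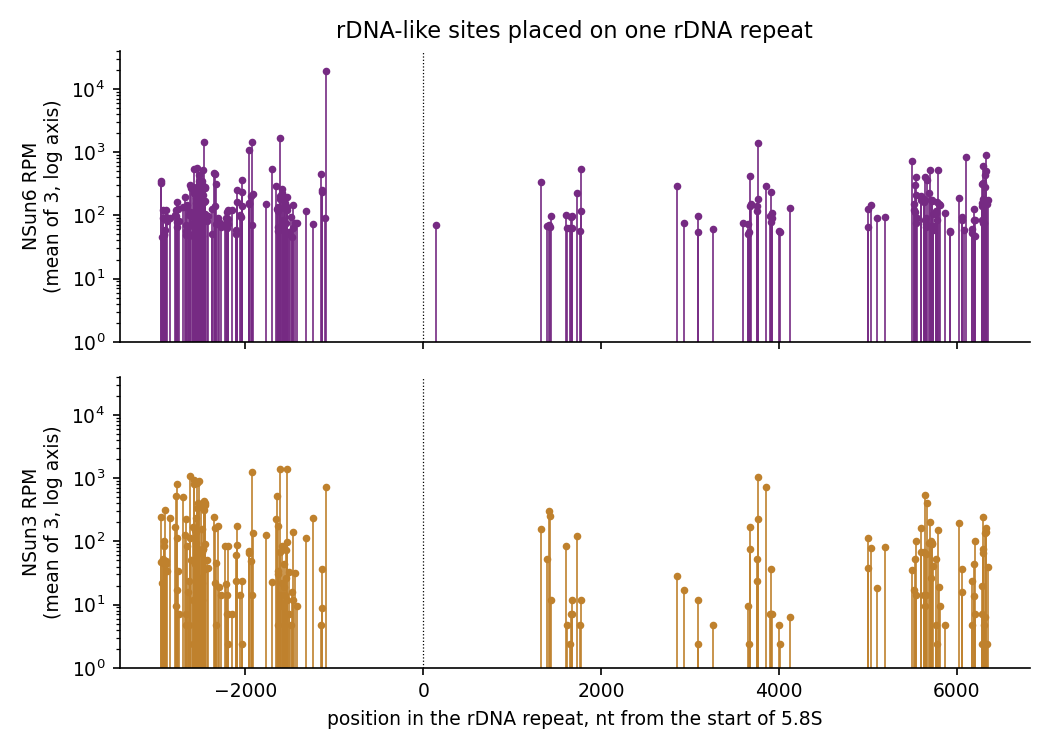
The rDNA-like sites placed on 1 rDNA repeat, by distance from the start of 5.8S (nt), with the mean level of 3 libraries (RPM, log axis) for NSun6 above and NSun3 below. The tallest NSun6 line, 19317 RPM, stands 1096 nt upstream of 5.8S; 256 of 269 sites are drawn, since 13 at sex-linked loci are not listed singly.

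Small RNA sites were led by Y RNA copies and by the flank of a vault RNA. Y RNAs are short RNAs bound by the Ro60 protein, and 25 sites resembled them, 11 at CTCCA and 23 predicted unpaired. The strongest, chr4:186032404 in no gene, began CTCCA and stood at 1161, 890 and 1067 RPM. A Y RNA copy at chr20:23438254, also at CTCCA, stood at 355, 169 and 269 RPM in NSun6 and at 21.6, 0 and 803 RPM in NSun3, so the groups overlapped there and NSun3 library 3 alone was high. For 7SL, the RNA of the signal recognition particle, there were 14 sites, 2 at CTCCA. They summed to 1766, 1238 and 1231 RPM in NSun6 and 691, 585 and 486 RPM in NSun3. A site 2 nt before VTRNA1-3, chr5:140105741, was by far the strongest of this kind at 13642, 12558 and 14529 RPM. It held most of the level of the 8 intronic small RNA sites, 13576 of 14744 RPM. Of the reads within 2 nt of those 8 sites, 4.35% fell on the cytosine itself. Its place outside the vault gene can thus come from giving truncations to the nearest cytosine, and it does not show binding outside the gene.

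Genes of known noncoding RNAs held few sites. Reads were kept only where they had a single best place, so genes with close copies can lose reads. A lack of sites there cannot tell whether NSun6 bound these RNAs. RN7SK, which holds the elongation factor P-TEFb inactive, had 1 at 179, 139 and 265 RPM. RMRP, the RNA of RNase MRP, had 2, the CTCCA site at 130, 76.99 and 337 RPM and the other at 259, 94.1 and 42.6 RPM. The miRNA genes held 10 sites in 6 of 3049 genes, none at CTCCA, and each was tRNA-like or rDNA-like. The snoRNA and scaRNA genes held 1 site in 1458 genes, in SNORD89 (86.4, 68.4 and 36.02 RPM). The 527 genes named as 5S rRNA, which include pseudogenes, held 1. It lay in RNA5SP221, annotated as an rRNA pseudogene (55.6, 49.2 and 78.6 RPM). Both sites began CTCCA. The RNA5SP221 site had 605 RPM in NSun3 library 1 and none in NSun3 libraries 2 and 3, so 1 library carried its NSun3 value. SNHG3 and SNHG32, hosts of snoRNAs, had 1 site each. The 1879 snRNA genes named RNU, to which RN7SK does not belong although 1 of its annotations is typed as snRNA, the gene of the telomerase RNA TERC, BCYRN1 and the annotated 7SL and Y RNA genes fixed in the list held none.

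Bisulfite reads of poly(A) RNA gave an independent readout at 272 of the 555 sites with coverage over 5 reads. Only 2 of the 272 reached a level of 20%, or 0.735% (exact 95% interval 0.0892% to 2.63%), beside 26 of 964 covered sites in protein-coding exons, or 2.70% (1.77% to 3.93%). Among all covered nuclear cytosines 0.756% reached this level. Both methylated sites were rDNA-like and downstream of 5.8S. The HFM1 intron site chr1:91852864 was 91.7% methylated over 3421 reads and the SLCO5A1 intron site chr8:70602496 was 89.1% methylated over 119 reads, 665 nt apart on the repeat. 28S rRNA is known to carry 5-methylcytosine at a pair of positions, set by NSUN5 and NOP2. The NSun6 levels at these sites were 216, 120 and 9.82 RPM in HFM1 and 133, 87.7 and 49.1 RPM in SLCO5A1. The other 236 covered rDNA-like sites had a median level of 0.0493%, and 232 of them were under 1%. Of the sites with no likeness 31 were covered, at a median of 55 reads, and none reached 20%, which allows a share of up to 11.2%. No tRNA-like site and no 18-nt match was covered, so methylation there was not measured. The table carries no replicate error, since its 2 samples are not separated.

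NSun3 libraries were not used to choose the sites, and they met them mainly at rDNA-like loci. Over 50 RPM in at least 2 of 3 NSun3 libraries was reached by 103 of the 555 sites, of which 83 were rDNA-like, 13 tRNA-like, 5 small RNA-like and 2 18-nt matches. None of the 113 sites with no likeness and none of the 1209 in protein-coding exons reached it. At the 113, 110 had no NSun3 read at all. All sites summed to 22.4%, 27.1% and 28.4% of reads in NSun3 libraries 1, 2 and 3, mostly through 1 copy of initiator tRNA-Met, chr1:153643785, with 165432, 231254 and 252217 RPM in NSun3 and 127, 70.6 and 58.9 RPM in NSun6. Without it the sums were 58213, 39793 and 32206 RPM in NSun3 and 170056, 199283 and 178043 RPM in NSun6.

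**Figure D5:**
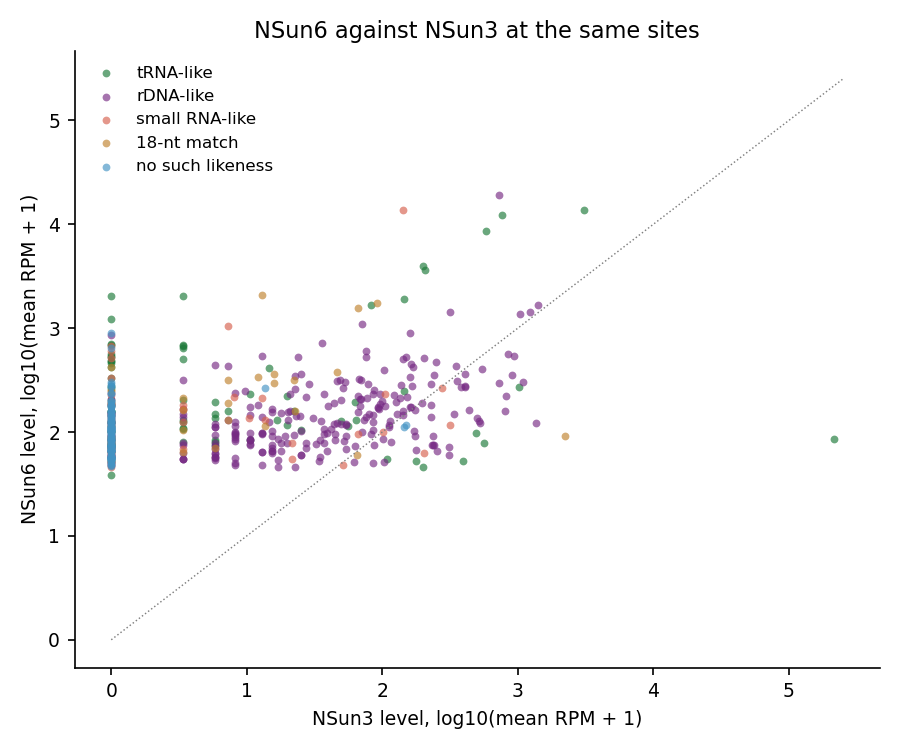
NSun6 against NSun3 level at the same sites, log10(mean RPM + 1) of 3 libraries each, coloured by likeness, with the dotted line at equal levels. The sites with no likeness stand at the left edge, 110 of 113 without an NSun3 read, and the rDNA-like sites spread toward the line; 541 of 555 sites are drawn.

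The count model compared the enzymes at each cytosine. Because high NSun6 values chose the sites, and many passed the filter on low counts through NSun6 alone, the calls at them are counted as a description and are no test of a lower NSun3 level. Over all nuclear and mitochondrial cytosines, 1737 passed the filter and were tested by edgeR's quasi-likelihood test with Benjamini-Hochberg adjustment, and 88.1% were called at an adjusted p under 0.05, 17.4% higher and 70.6% lower in NSun3. Of the 454 sites that passed the filter on low counts, 288 were called lower in NSun3, 15 higher and 151 neither, with 101 sites not tested. Of the 230 rDNA-like sites tested, 91 were called lower and 8 higher.

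Sites higher in NSun3 run against the way the sites were chosen, and few of these calls held under the other ways of fitting. Called in all 12 fits were chr1:153643785 and an intron site of OPA1, the GTPase that fuses mitochondrial inner membranes. The OPA1 site chr3:193373569 stood at 2419, 2791 and 1478 RPM in NSun3 and at 58.7, 130 and 81.9 RPM in NSun6, and was higher in NSun3 by 4.80 ± 0.62 (SE) on the log2 scale (adjusted p = 9.46e-05, edgeR). The groups did not overlap. Its 18 bases match mitochondrial DNA with 2 mismatches. An rDNA-like site at chr16:33963919 stood at 806, 1377 and 1922 RPM in NSun3 and 104.96, 141 and 118 RPM in NSun6 and was called in 11 fits. A tRNA-like site in an SLC47A1 intron, chr17:19411532, stood at 410, 736 and 549 RPM against 64.8, 74.9 and 91.7 RPM and was called in 10. At both of these the groups did not overlap either.

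The share of nuclear reads by place used no threshold on NSun6, and it counts only reads given to a cytosine within 2 nt. Of all reads, mitochondrial ones included, 80.4% to 84.5% were given to a cytosine in NSun3 and 91.4% to 92.3% in NSun6. What this unequal loss adds to the differences was not tested. Place was read by strand, and the strand, taken from the order of positions in the files, matched that of the exon at 97.0% to 97.4% of exonic positions in NSun6 and at 62.99% to 82.0% in NSun3, so the places are less certain in NSun3. The part of this in the differences was not tested. Exons of noncoding genes took 6.46% ± 0.43 of the nuclear reads given to a cytosine in NSun6 and 2.46% ± 0.80 in NSun3 (SD, n = 3 each). Introns took 14.5% ± 1.62 in NSun6 and 10.7% ± 1.94 in NSun3. Cytosines in no gene took 11.6% ± 0.94 in NSun6 and 84.0% ± 3.81 in NSun3. In each place the 3 NSun6 libraries lay on one side of the 3 NSun3 libraries, with an exact two-sided permutation p of 0.1, the smallest that 3 libraries against 3 allow, so no difference could pass a threshold of 0.05. The initiator tRNA-Met cytosine alone held 33.7%, 43.2% and 43.2% of the nuclear reads given to a cytosine in NSun3 libraries 1, 2 and 3. Without it the intron share was lower in NSun6 by 3.21 percentage points (exact permutation p = 0.2), while the share in exons of noncoding genes stayed higher in NSun6 by 2.41 points and that in no gene lower, at a difference of -62.02 points (p = 0.1 each, exact permutation). Counting each cytosine once gave NSun6 a lower share of introns and of noncoding exons as well.

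The 50 RPM limit cuts through a continuous range. Just inside it, the second highest of the 3 NSun6 values was 51.3 RPM for the last site in an intron of KCTD2, at 3.09, 51.3 and 58.9 RPM, and 52.4 RPM for a site in AL161626.1 at 43.2, 62.02 and 52.4 RPM. Just outside it stood a 7SL cytosine in RN7SL2 at 49.4, 44.9 and 58.9 RPM. In NSun6 library 1, where 1 read was worth 3.09 RPM, a cytosine at 49.4 RPM was 1 read short of the limit.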

How the data were processed

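Per the study's methods, the authors collapsed reads with equal random barcodes, trimmed adapters with cutadapt, dropped reads under 18 nt, aligned miCLIP reads to hg19 with Bowtie (1 mismatch, unique best hit). What they deposited are integer counts of truncations at each position, with 1 file per library and no strand column. The chromosomes come 2 times in every file; positions of pass 1 were put on the plus strand, which left 97.0% to 97.4% of exonic NSun6 positions and 62.99% to 82.0% of NSun3 positions on their exon's strand. For bisulfite RNA, aligned with Bismark per the processing notes, the deposited table gives methylated and unmethylated counts and the percent methylated for both samples in 1 table, so values carry no replicate error.

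Each truncation went to the nearest cytosine within 2 nt, the 5′ one in a tie. Genes are GENCODE on GRCh37. Likeness came from BLAST 2.17.0 and a scan for tRNA arms, folds from ViennaRNA 2.7.2. Counts were compared in edgeR 4.0.16 (R 4.3.3; TMM, filterByExpr, quasi-likelihood test) and, as an alternative, DESeq2 1.42.0. On simulated counts of 1737 cytosines, 61% of 8-fold and 30% of 4-fold changes were recovered. Methylated means a level of at least 20% at a coverage over 5 reads. Intervals are exact binomial (Clopper-Pearson) at 95% and, like the limits from 3 counts, cover counting error only. Labels do not say whether replicates were separate cultures, so p-values measure only the spread between these libraries. No columns of other samples were present (0 unused).

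The sites, gene lists and named sites were chosen with earlier results of these data known, and the likeness classes, the wider tRNA form and the alternatives without copies after values were seen. Named sites were drawn from the 8 with the highest mean NSun6 level in each place and from those in listed noncoding genes. Sites at Cys or Thr loci, methylated sites and sites called higher in NSun3 were drawn on as well. The sites with no likeness named beyond these, those at exon edges and those called in most fits were chosen after their values were seen. Not every site of these kinds was described. The strongest site in no gene, the tRNA-like chr6:28864012 at a mean of 3970 RPM, is one left out. An annotation of nuclear tRNA genes was not used here.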

Additional observations from a re-analysis of the deposited data

How the results depend on the processing

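Of 128 alternatives over 15 results, 89 stayed within the interval, the spread between libraries or 1.5 times of the reported value, 36 moved it and 3 turned its direction. The number of sites was 1122 at a limit of 20 RPM and 300 at 100 RPM, with 150 and 30 in exons of noncoding genes (42 when all 3 libraries had to pass 50 RPM), 442 and 111 in introns, and 530 and 159 in no gene. The CTCCA share was 29.1% at 20 RPM, 16.3% at 100 RPM, 77.9% without copies of abundant RNAs and 39.1% with sites within 100 nt counted once; the last 2 were chosen after seeing the data. The methylated share was 0% when all 3 libraries had to pass, and 0% to 0.885% leaving out an NSun6 library, at 0% without library 1 or library 2. It was 1.40% at 20 RPM and 1.84% at a level of at least 10%, over 1.5 times the 0.735% reported but within its wide interval. The unpaired share of all sites was 47.2% with 40 nt on each side in place of 54.6%, with 71.7% of the sites with no likeness, 73.2% of those in protein-coding exons and 37.2% of the rDNA-like sites. In addition, 34 sites passed 50 RPM in all 3 NSun3 libraries.

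Cytosines called between the enzymes numbered 4169 with no filter and 1160 to 2811 leaving out a library, which also changes how many were tested (1482 to 3321). Sites higher in NSun3 numbered 4 with RLE size factors, 5 with DESeq2, 2 with no filter, 0 without copies and 4 to 15 leaving out a library. Sites lower in NSun3 numbered 186 to 454 leaving out a library and 75 without copies. Copies were left out after seeing the data. The higher calls fell to 6 without NSun3 library 1, 4 without NSun3 library 2 and 5 without any NSun6 library.

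Labels give both enzymes replicates 1 to 3, but deviations of same-numbered libraries correlated at -0.0664, 0.0571 and 0.105, so the numbers do not pair them. With a replicate block 3 sites were higher and 203 lower in NSun3, and 1402 cytosines were called in all.

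The difference in share of nuclear reads given to a cytosine is taken as NSun6 minus NSun3. When each cytosine counted once it became -1.69 points in exons of noncoding genes and -10.1 points in introns. Without the strongest NSun3 cytosine it became -3.21 points in introns. In no gene it was -48.1 points when each cytosine counted once. The cause was not tested beyond these settings. Depth limits the NSun3 side, where 1 read is 7.20 to 21.1 RPM.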
